A study of Homo sapiens with 12 samples.

Results

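Histone deacetylases (HDACs) remove acetyl groups from lysines of histones and other proteins, and this account follows the mRNA of HDAC1 to HDAC7 and HDAC9 to HDAC11 in MiaPaca2 cells, a human pancreatic ductal adenocarcinoma (PDAC) line. The members were chosen as genes of this family, by symbol, and they are 10 of 63677 identifiers in the count tables. All 10 passed the filter on low counts and were among the 17123 genes tested. RNA-seq was performed in 4 groups of 3 libraries: Con, which received DMSO; CPT, which received 1 µM calcipotriol, a Vitamin D analog; GTA+5-Aza, which received 2 mM glyceryl triacetate, an acetate donor, and 1 µM 5-Aza-2′-deoxycytidine, an inhibitor of DNA methyltransferases; and CPT+GTA+5-Aza, which received all of these. Treatment lasted 24 h in every group, no allele was altered, and the term priming is used for GTA with 5-Aza. All groups were 1 cell line, and GTA and 5-Aza were not given separately, so the share of each agent in an effect of priming cannot be told apart. The general methods of the study call the samples of an experiment independent, but neither they nor the labels say that these libraries came from separate cultures, so p-values measure the spread between these libraries, which may be technical.

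The family is divided by sequence into classes. The class I enzymes followed here, HDAC1, HDAC2 and HDAC3, are nuclear and act as the catalytic subunits of corepressor complexes. HDAC1 and HDAC2 do so in NuRD, SIN3, CoREST and MiDAC, and HDAC3 does so in the NCoR complex. Class IIa proteins (HDAC4, HDAC5, HDAC7 and HDAC9) have little deacetylase activity of their own, bind MEF2 transcription factors, and are held in the cytoplasm by 14-3-3 proteins after phosphorylation by SIK, PKD and CaM kinases. HDAC6 and HDAC10 form class IIb, and HDAC11 is class IV. HDAC inhibitors have been tried against PDAC because low histone acetylation is a feature of the disease, and acetate released from GTA supplies the acetyl groups that these enzymes take off.

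Library totals ran from 16162490 to 21224665 counts. Levels are given as CPM, read counts normalised to library size with TMM factors, and genes were compared by the quasi-likelihood method of edgeR, with p-values adjusted by Benjamini and Hochberg's procedure over the 17123 genes and an adjusted p under 0.05 as the call. Con libraries held 1539.7 CPM of KRT8, 732 of KRT18 and 6202 of VIM on average, while EPCAM and CDH1 had at most 1 count in a Con library and at most 4 in any library. The 4 acinar and 3 endocrine markers were at 0 in all libraries, and immune and endothelial markers summed to at most 0.508 and 0.625 CPM. Fibroblast markers summed to between 790 and 842 CPM in Con and between 874 and 944 CPM in GTA+5-Aza, nearly all of it COL1A2 (810 CPM in Con, against 0.135 CPM for COL1A1). Ductal and epithelial markers summed to between 2231 and 2391 CPM in Con and between 2443 and 2625 CPM in GTA+5-Aza. Most of it was KRT8 and KRT18, while KRT19 was at 32.5 and KRT7 at 0.389 CPM in Con. The mesenchymal markers VIM and ZEB1 summed to between 6219.5 and 6337 CPM in Con and between 5362 and 5719.7 CPM in GTA+5-Aza. Between CPT and CPT+GTA+5-Aza the ductal ranges overlapped (2082 to 2536 and 2481 to 2566 CPM). The fibroblast ranges (689 to 763 and 815 to 842 CPM) and mesenchymal ranges (6122 to 6659 and 5490 to 5783 CPM) did not. The part of these marker differences in the results below was not tested.

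Priming changed 3 of the 10 HDAC genes, all of class IIa, and did so with and without CPT. HDAC4 mRNA fell to 0.443-fold of Con without CPT and to 0.433-fold of CPT with it, whereas HDAC5 and HDAC7 mRNA rose between 1.63-fold and 2.02-fold. The fourth class IIa gene, HDAC9, and all members of classes I, IIb and IV did not pass the test. In GTA+5-Aza against Con, 2 members were called higher, where 9.95% of all tested genes were, and 1 was called lower, where 7.53% were. CPT+GTA+5-Aza against CPT, which shares no library with the former comparison, also had 2 members higher, with a background of 9.57%, and 1 lower, with a background of 7.39%. The median log2 fold change over the 10 members was 0.06 without CPT and 0.07 with CPT, beside 0.0069 and 0.0055 over all tested genes. A fold change over 1.5 with an unadjusted P under 0.05 in edgeR's test was reached by 3 members in each comparison, with backgrounds of 8.44% without CPT and 8.67% with CPT. In a bulk culture, fewer cells expressing a gene and less mRNA per cell cannot be told apart.

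**Figure D1:**
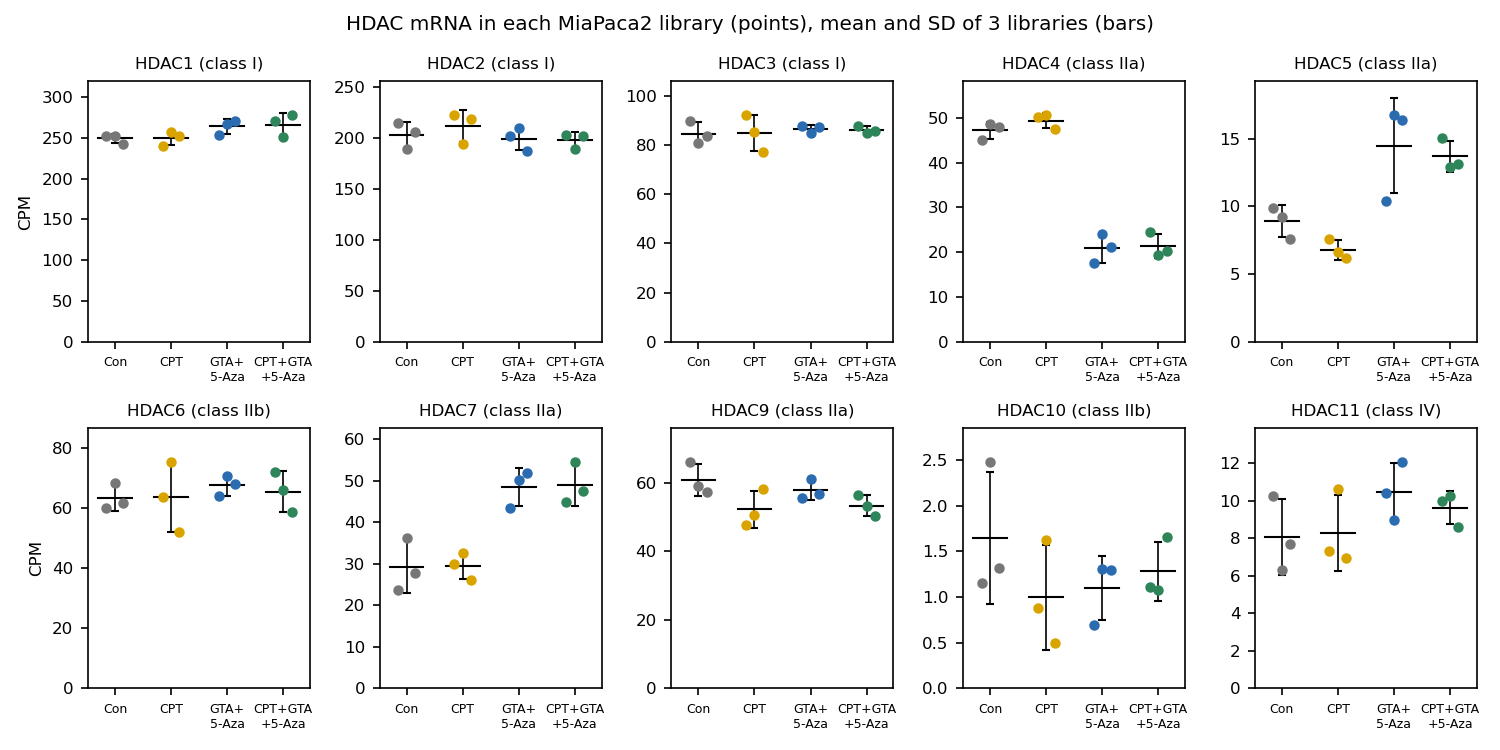
CPM of each HDAC gene (vertical axes, from 0) in the 4 groups (horizontal axes), with a point for each library, a horizontal bar for the mean and a whisker for the SD of 3 libraries. The HDAC4 points of both primed groups lie between 17.6 and 24.5 CPM, below all unprimed ones, while those of HDAC5 and HDAC7 lie above all unprimed ones.

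5-Aza inhibits DNA methyltransferases, which methylate CG dinucleotides. The stretch before a RefSeq start of 3 class IIa genes is therefore printed first. These are HDAC4, which fell, HDAC7, which rose, and HDAC9, which did not pass the test. The sequences are from RefSeq on GRCh38.p14, run 5′ to 3′ on the strand of the gene, stop before annotated exons, and have each CG in capitals (CG reads the same on both strands). HDAC4 lies on the minus strand, with 245 bases at chr2:239401655-239401899. HDAC7 is also on the minus strand, with 173 bases at chr12:47819981-47820153. HDAC9 is on the plus strand, with 211 bases at chr7:18495499-18495709.
HDAC4: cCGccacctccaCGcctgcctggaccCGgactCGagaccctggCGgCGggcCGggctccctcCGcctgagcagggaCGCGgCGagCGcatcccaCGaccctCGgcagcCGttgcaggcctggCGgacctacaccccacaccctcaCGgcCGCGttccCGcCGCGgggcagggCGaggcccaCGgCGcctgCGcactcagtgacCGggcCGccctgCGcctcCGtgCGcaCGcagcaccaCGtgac
HDAC7: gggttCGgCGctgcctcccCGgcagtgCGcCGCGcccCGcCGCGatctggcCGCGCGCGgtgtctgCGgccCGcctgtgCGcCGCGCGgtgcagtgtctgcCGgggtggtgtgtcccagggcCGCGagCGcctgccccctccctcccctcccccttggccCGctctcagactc
HDAC9: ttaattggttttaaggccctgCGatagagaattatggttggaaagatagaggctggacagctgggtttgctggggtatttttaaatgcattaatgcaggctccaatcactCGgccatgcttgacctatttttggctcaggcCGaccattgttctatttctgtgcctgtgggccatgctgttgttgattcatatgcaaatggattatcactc
These stretches hold 33, 24 and 3 CGs. In the full window of 250 bases before the RefSeq start, HDAC4 had 33 CGs, a count that 8.44% of 27305 RefSeq promoters reach or exceed, HDAC7 had 28 (16.5% of promoters) and HDAC9 had 4 (70.4% of promoters), where the median promoter has 11. The RefSeq start used for HDAC4 is 629 bases from that of its MANE Select transcript. Those of HDAC7 and HDAC9 are MANE Select starts, but they lie inside the annotated genes, which begin at 47833132 and 18086949. The windows of HDAC2, HDAC6 and HDAC11 also lie inside their genes. That of HDAC10 (50251266 to 50251515) lies partly inside its gene, which begins at 50251405. The stretch before the outer start of these genes was not counted, or for HDAC10 only in part. A table entry was found for 9 of the 10 members, and HDAC5 had none. The windows of HDAC1, HDAC2, HDAC3, HDAC6, HDAC10 and HDAC11, none of which was called, held 21, 18, 22, 24, 35 and 24 CGs. A high CG count was thus found before RefSeq starts of genes that fell, rose and were not called, and DNA methylation was not measured in these libraries.

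HDAC4 (ENSG00000068024, GRCh38 chromosome 2 from 239048168 to 239401654, minus strand), a MEF2 corepressor known from bone and muscle, had the most marked response of the members. It was at 45.1, 48.6 and 48.0 CPM in the Con libraries and at 17.6, 24.0 and 21.1 CPM in the GTA+5-Aza libraries. With CPT alone the libraries had 50.1, 50.5 and 47.5 CPM, and with CPT+GTA+5-Aza 24.5, 19.4 and 20.3 CPM. Every primed library was thus below every unprimed one, and the spread within groups was far smaller than the gap. HDAC4 changed by -1.18 on the log2 scale (standard error, SE, 0.11) in GTA+5-Aza against Con (adjusted p = 4.59e-08) and -1.21 with an SE of 0.11 in CPT+GTA+5-Aza against CPT (adjusted p = 2.60e-08). Averaged over both, HDAC4 changed by -1.19 (95% confidence interval -1.35 to -1.03) and ranked 25th by P among the 17123 genes. The antisense gene HDAC4-AS1, whose exons overlap those of HDAC4, had 12 to 24 counts per library and a log2 fold change of -0.08 with an adjusted p of 0.948 in GTA+5-Aza against Con, beside 329 to 1027 counts of HDAC4.

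HDAC7 (ENSG00000061273, chromosome 12 from 47782722 to 47833132, minus strand), known from endothelial cells and developing thymocytes, moved the opposite way. Con libraries had 23.7, 36.2 and 27.9 CPM and GTA+5-Aza libraries 43.4, 50.3 and 51.8 CPM. CPT libraries had 30.1, 32.5 and 26.0 CPM and CPT+GTA+5-Aza libraries 45.0, 54.6 and 47.5 CPM. Con replicate 2 was the highest unprimed library and still lay below the lowest primed one. The log2 fold change was 0.73 with an SE of 0.12 both without CPT (adjusted p = 0.000141) and with it (adjusted p = 0.000145). HDAC7 shares exon positions with SLC48A1 on the opposite strand, a heme transporter gene with 101 to 275 counts per library, which rose too, by a log2 fold change of 1.02 (adjusted p = 0.000249) and 0.80 (adjusted p = 0.00273). ENSG00000268069, also on the opposite strand with 31 to 96 counts, had 1.12 (adjusted p = 0.00677) and 0.44 (adjusted p = 0.31). The strand setting of the counting is not given in the sources used here, so reads from shared exons of these genes and HDAC7 cannot be told apart, and their part in the rise of HDAC7 was not tested.

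HDAC5 (ENSG00000108840, chromosome 17 from 44076746 to 44123702, minus strand), a close relative of HDAC4 studied in heart and muscle, rose from a lower level. There were 9.89, 9.25 and 7.63 CPM in Con and 10.4, 16.7 and 16.4 CPM in GTA+5-Aza. GTA+5-Aza replicate 1 was close to the Con libraries, and the other libraries of that group stood well above them. With CPT the separation was wider, from 7.59, 6.64 and 6.17 CPM in CPT to 15.1, 12.9 and 13.1 CPM in CPT+GTA+5-Aza. The log2 fold change was 0.70 with an SE of 0.17 (adjusted p = 0.00452) without CPT and 1.01 with an SE of 0.18 (adjusted p = 0.000172) with CPT. These log2 fold changes differed by 0.31 (95% confidence interval -0.19 to 0.81, unadjusted P = 0.214 in edgeR's test of the interaction), so a difference was not detectable. G6PC3, a glucose-6-phosphatase gene that overlaps HDAC5 on the other strand with 848 to 1203 counts against 113 to 334 of HDAC5, had log2 fold changes of 0.04 (adjusted p = 0.828) and 0.26 (adjusted p = 0.0347). As the strand setting is not given, reads from exons that G6PC3 shares with HDAC5 cannot be told apart. Their part in the rise of HDAC5 was not tested.

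HDAC9 (ENSG00000048052, chromosome 7 from 18086949 to 19002416, plus strand), the MEF2 corepressor with the longest gene body of the 10, was not called with priming. Con libraries held 66.1, 59.1 and 57.2 CPM, GTA+5-Aza 55.7, 61.3 and 56.7 CPM, CPT 47.7, 50.7 and 58.3 CPM, and CPT+GTA+5-Aza 56.5, 53.3 and 50.3 CPM. All 4 ranges overlapped with at least 1 other. Its average log2 fold change with priming was -0.02, with a 95% confidence interval of -0.15 to 0.11, which excludes changes of the size seen for HDAC4, HDAC5 and HDAC7.

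**Figure D2:**
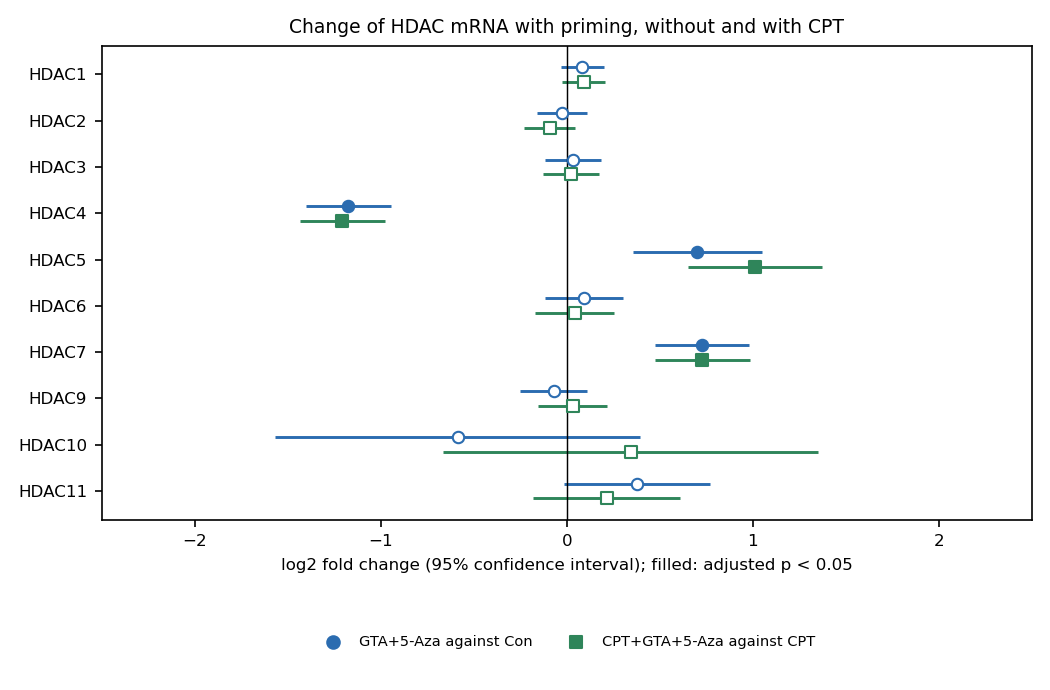
Log2 fold change (horizontal axis) of each HDAC gene with priming, without CPT (circles) and with CPT (squares); bars are 95% confidence intervals and filled symbols have an adjusted p under 0.05. HDAC4 is at -1.18 and -1.21, HDAC7 at 0.73 and 0.73, HDAC5 at 0.70 and 1.01, and the symbols of the other 7 genes are open.

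The opposite moves changed the makeup of class IIa mRNA more than its sum. To compare genes, CPM was divided by the length of the union of exons in GENCODE release 44, which gives CPM per kilobase. On that scale the 4 class IIa genes summed to 10.97 ± 0.649 in Con, 10.4 ± 0.246 in CPT, 11.6 ± 1.23 in GTA+5-Aza and 11.3 ± 0.426 in CPT+GTA+5-Aza (mean ± SD, n = 3), and the range of Con overlapped those of both primed groups, while that of CPT (10.2 to 10.6) lay below that of CPT+GTA+5-Aza (10.8 to 11.6). HDAC4 made up 30.4% ± 1.58 of the sum in Con and 33.6% ± 0.618 in CPT, but 12.7% ± 0.77 in GTA+5-Aza and 13.3% ± 1.65 in CPT+GTA+5-Aza. HDAC7 made up 26.7% ± 4.405 and 28.6% ± 2.55 in the unprimed groups, and 42.1% ± 1.39 and 43.6% ± 3.95 in the primed groups. HDAC5 rose from 10.7% ± 1.33 in Con to 16.2% ± 2.45 in GTA+5-Aza as a share, and HDAC9 stood at 32.2% ± 3.34 and 29.0% ± 2.34. The HDAC7 count divided by the HDAC4 count, a ratio that needs no scaling between libraries, was 0.526 to 0.745 in Con, 0.548 to 0.644 in CPT, 2.10 to 2.47 in GTA+5-Aza and 1.83 to 2.82 in CPT+GTA+5-Aza. HDAC4 thus had the higher count in all unprimed libraries and HDAC7 in all primed ones. With the longest coding transcript as the length, the HDAC4 share went from 26.5% ± 1.496 to 10.4% ± 0.711 and the HDAC7 share from 34.7% ± 5.13 to 51.7% ± 1.38 between Con and GTA+5-Aza. These shares restate the changes of the single genes and were not tested.

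**Figure D3:**
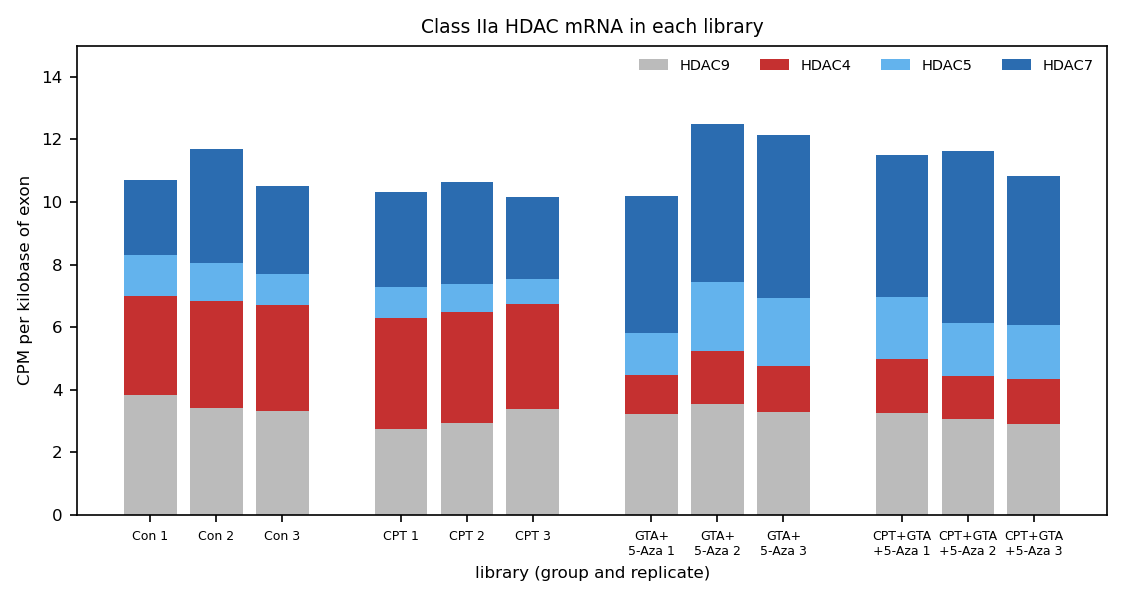
Stacked levels in CPM per kilobase of exon (vertical axis, from 0) of HDAC9, HDAC4, HDAC5 and HDAC7 in each of the 12 libraries (horizontal axis, by group and replicate). Bar heights overlap between Con and GTA+5-Aza, whereas the HDAC4 segment is a mean of 30.4% of the bar in Con and 12.7% in GTA+5-Aza.

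The class I members had the highest levels and moved little. HDAC1 (ENSG00000116478, chromosome 1 from 32292083 to 32333635, plus strand) was at 253, 253 and 243 CPM in Con and at 254, 267 and 271 CPM in GTA+5-Aza. The groups did not overlap, but their nearest libraries were at 253 and 254 CPM and the log2 fold change of 0.08 had an adjusted p of 0.36. CPT libraries had 241, 258 and 252 CPM and CPT+GTA+5-Aza libraries 271, 251 and 277 CPM, and these overlapped. The average effect of priming on HDAC1 was 0.09 (95% confidence interval 0.0041 to 0.17), with an adjusted p of 0.106. That value passed the threshold with library size as the scaling (0.13, adjusted p = 0.0165) or with the GC trend of each library removed (0.10, adjusted p = 0.0148).

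HDAC2 (ENSG00000196591, chromosome 6 from 113933028 to 114011308, minus strand), the usual partner of HDAC1 in its complexes, had 215, 189 and 206 CPM in Con and 202, 210 and 187 CPM in GTA+5-Aza. Its CPT libraries had 222, 194 and 219 CPM and its CPT+GTA+5-Aza libraries 204, 190 and 202 CPM. All groups overlapped, and the average log2 fold change with priming was -0.06 (95% confidence interval -0.16 to 0.04), with a positive value of 0.05 once the GC trend was removed. HDAC3 (ENSG00000171720, chromosome 5 from 141620876 to 141636849, minus strand) had 89.6, 80.8 and 83.5 CPM in Con and 87.6, 84.8 and 87.2 CPM in GTA+5-Aza. Its CPT libraries had 92.0, 85.1 and 77.3 CPM and its CPT+GTA+5-Aza libraries 87.8, 85.0 and 85.7 CPM. Here too the groups overlapped, and the average log2 fold change was 0.03 with an interval of -0.08 to 0.13. ENSG00000228737, which overlaps HDAC3 on the opposite strand with 213 to 275 counts per library, had 0.06 (adjusted p = 0.71). The intervals of HDAC1, HDAC2 and HDAC3 exclude a change of 0.2 on the log2 scale in either direction.

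HDAC6 (ENSG00000094631, chromosome X from 48801377 to 48824982, plus strand), a cytoplasmic enzyme that deacetylates tubulin, had 60.0, 68.3 and 61.9 CPM in Con and 64.0, 70.8 and 68.1 CPM in GTA+5-Aza. CPT libraries had 63.6, 75.5 and 52.1 CPM, and CPT+GTA+5-Aza libraries 72.1, 66.0 and 58.7 CPM. The widest range was that of CPT, and it held all values of Con. The average log2 fold change of HDAC6 with priming was 0.07 (95% confidence interval -0.08 to 0.22).

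HDAC10 (ENSG00000100429, chromosome 22 from 50245183 to 50251405, minus strand), which deacetylates polyamines, had the fewest reads of the members. It had 22, 52 and 27 counts in Con, 16, 33 and 9 in CPT, 13, 26 and 23 in GTA+5-Aza, and 21, 19 and 27 in CPT+GTA+5-Aza. The groups overlapped, and the average log2 fold change with priming of -0.12 had an interval of -0.83 to 0.58, the widest of the 10 genes. HDAC10 shares exon positions with MAPK12 on the same strand, a p38 kinase gene with 772 to 1171 counts per library, which had an average log2 fold change of 0.26 (adjusted p = 0.00285). The part of this overlap in the low counts of HDAC10 was not tested.

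HDAC11 (ENSG00000163517, chromosome 3 from 13479724 to 13506424, plus strand), which removes long acyl groups from lysine, had 10.3, 6.29 and 7.68 CPM in Con and 10.4, 8.97 and 12.1 CPM in GTA+5-Aza. CPT libraries had 7.31, 10.6 and 6.93 CPM, and CPT+GTA+5-Aza libraries 9.98, 10.3 and 8.63 CPM. Con replicate 1 and CPT replicate 2 stood above the other libraries of their groups. The average log2 fold change with priming was 0.30 with an SE of 0.14 and an adjusted p of 0.101. Without Con replicate 1 it was 0.39 (adjusted p = 0.0327), and without CPT replicate 2 it was 0.40 (adjusted p = 0.0159).

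Per kilobase of exon, the order of the genes in Con was HDAC1 (62.9 CPM per kilobase), HDAC3 (18.4), HDAC2 (13.3), HDAC6 (4.38), HDAC9 (3.52), HDAC4 (3.33), HDAC7 (2.95), HDAC11 (1.54), HDAC5 (1.17) and HDAC10 (0.333). Ranges over the libraries overlapped between the neighbours HDAC9 and HDAC4, HDAC4 and HDAC7, and HDAC11 and HDAC5, so these are not ordered, and the other neighbours did not overlap. In GTA+5-Aza, HDAC7 was at 4.89 CPM per kilobase beside HDAC6 at 4.67, with overlapping ranges. By the longest coding transcript the levels were apart, at 11.5 ± 1.06 for HDAC7 and 15.3 ± 0.781 for HDAC6 (mean ± SD, n = 3). HDAC4 was at 1.47 CPM per kilobase there, below HDAC9 at 3.35 and HDAC11 at 2.01 and overlapping HDAC5 at 1.90. The order among class I members and the last place of HDAC10 were the same in all 4 groups, with either measure of length.

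Averaged over both comparisons of priming, 2 members were higher, beside 16.8% of all tested genes, and 1 was lower, beside 14% of them. HDAC5 had an average log2 fold change of 0.86 with an SE of 0.12 (adjusted p = 4.59e-06) and HDAC7 one of 0.73 with an SE of 0.09 (adjusted p = 3.85e-07). The full combination against Con shares its libraries with the comparisons above. It gave 2 members higher, beside 9.62% of tested genes, and 1 lower, beside 7.16%, with log2 fold changes of -1.14 for HDAC4 (adjusted p = 5.05e-08), 0.74 for HDAC7 (adjusted p = 0.000118) and 0.62 for HDAC5 (adjusted p = 0.0117). The call of HDAC5 was lost without Con replicate 3 (0.52, adjusted p = 0.0799) and without CPT+GTA+5-Aza replicate 1 (0.55, adjusted p = 0.0655). HDAC9 had -0.19 with an adjusted p of 0.156, although its libraries did not overlap between these groups.

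CPT, tested to see whether the Vitamin D analog acts differently on primed cells, gave no call for any HDAC gene in either state. In CPT against Con 0 of 10 members were called by edgeR and 0 by DESeq2, beside 0% of all genes in edgeR, and 2 members had an unadjusted P under 0.05 with each tool, as did 733 of the 17123 genes in edgeR. These were HDAC5 and HDAC9 in edgeR's test. HDAC5 was lower in all 3 CPT libraries than in any Con library, but the nearest libraries were at 7.59 CPM in CPT and 7.63 CPM in Con. Its log2 fold change was -0.39 (unadjusted P = 0.0365, adjusted p = 1). HDAC9 had -0.22 (unadjusted P = 0.0201, adjusted p = 1) with overlapping groups. In CPT+GTA+5-Aza against GTA+5-Aza 0 members were called, beside 0% of all genes, and 0 had an unadjusted P under 0.05 with edgeR or DESeq2. There HDAC5 had a log2 fold change of -0.08 (95% confidence interval -0.42 to 0.26) and HDAC9 one of -0.12 (-0.30 to 0.07). Without GTA+5-Aza replicate 1, the library of that group nearest to Con, the value of HDAC5 was -0.27. A fold change over 1.5 with an unadjusted P under 0.05 was reached by 0 members in either comparison, beside 1.83% of genes in unprimed and 1% in primed cells.

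**Figure D4:**
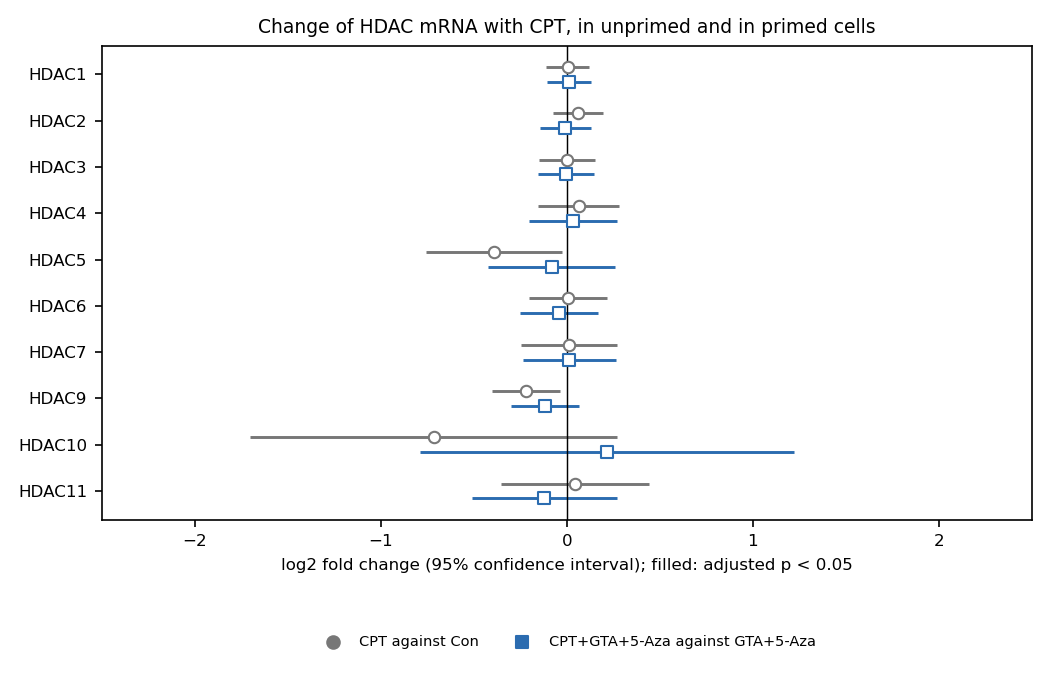
Log2 fold change (horizontal axis) of each HDAC gene with CPT, in unprimed (circles) and primed cells (squares); bars are 95% confidence intervals, and a filled symbol would mark an adjusted p under 0.05. All symbols are open, and only the bars of HDAC5 and HDAC9 in unprimed cells stay clear of 0, at -0.39 and -0.22.

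Averaged over both states, CPT gave 0 called members, beside 0.00584% of all genes, and 1 member with an unadjusted P under 0.05 in edgeR and in DESeq2, as had 773 of the 17123 genes in edgeR. This was HDAC9, with a log2 fold change of -0.17 (95% confidence interval -0.30 to -0.04, unadjusted P = 0.0126 in edgeR's test). The interaction of CPT and priming was called for 0 members by edgeR and DESeq2, beside 0% of all genes, and 0 members had an unadjusted P under 0.05 with either tool. For HDAC4 the effect of priming differed by -0.03 between cells with and without CPT (95% confidence interval -0.35 to 0.29), and for HDAC7 by 0.0017 (-0.36 to 0.36). HDAC10 had the widest interval, -0.48 to 2.34 around 0.93, and its low counts leave a difference undetectable.

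Genes of the complexes and pathways that HDAC proteins work in were described from lists, whose counts are read against the 16.8% of all tested genes that were higher and the 14% that were lower for the average effect of priming. Subunits of the NCoR complex, the corepressor that joins HDAC3 to class IIa proteins, were 4 lower and 1 higher of 5 for the average effect of priming, with a median log2 fold change of -0.23 beside 0.0059 over all tested genes. The scaffold gene NCOR1 is among the lower ones, as are TBL1X (-0.58, adjusted p = 3.30e-07), TBL1XR1 (-0.33, adjusted p = 4.08e-05) and GPS2 (-0.23, adjusted p = 3.37e-05). CORO2A, an actin-binding subunit, was higher by 1.01 (adjusted p = 6.02e-09), from 15.9 ± 1.42 CPM in Con to 33.5 ± 4.71 CPM in GTA+5-Aza. In the single comparisons the list had 3 lower and 1 higher without CPT, beside 7.53% and 9.95% of all tested genes. With CPT it also had 3 lower and 1 higher, beside 7.39% and 9.57% of all tested genes. HDAC3 itself, the enzyme of this complex, was not called.

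Among 13 genes of CoREST and MiDAC, complexes built on HDAC1 and HDAC2, 4 were higher and 2 lower, beside 16.8% and 14% of all tested genes, with a median of 0.07. RCOR2, a CoREST scaffold, rose from 3.98 ± 0.478 CPM in Con to 11.8 ± 2.12 CPM in GTA+5-Aza, with an average log2 fold change of 1.57 (adjusted p = 1.28e-09), whereas GSE1 had -0.42, TRERF1 -0.21 and PHF21A 0.19. NuRD, which couples HDAC1 and HDAC2 to a chromatin remodeler, had 3 of 13 genes higher and 1 lower, in sum a share near that of all tested genes, with a median of 0.05. The remodeler CHD3 rose by 0.54 (adjusted p = 2.85e-09) and its relative CHD5 by 0.35, the methyl-CG binding gene MBD2 rose by 0.67 (adjusted p = 0.0149), and GATAD2A fell by 0.12. MBD2 and GATAD2A were not called in either single comparison of priming. MBD2 was low and variable, at 4.67 ± 1.11 CPM in Con and 7.95 ± 3.42 CPM in GTA+5-Aza. SIN3 complex genes were 2 higher and 4 lower of 14, with a median of -0.02. The named ones are ARID4A (-0.29), BRMS1 (-0.26), ARID4B (-0.20) and SAP30L (0.24). For the average effect none of these lists had all its called genes on the same side, and the scaffold genes SIN3A, SIN3B and RCOR1 were not called.

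Of 25 listed class IIa partners 21 were tested, and 3 were higher and 8 lower, beside 16.8% and 14% of all tested genes, with a median of -0.07. The MEF2 genes MEF2A and MEF2D, the transcription factors that class IIa proteins hold down, were not called (0.06, adjusted p = 0.609, and 0.05, adjusted p = 0.613), and MEF2B and MEF2C did not pass the filter on low counts. The kinase gene PRKD2, whose product phosphorylates class IIa proteins, rose by 0.57 (adjusted p = 1.01e-06). The 14-3-3 genes YWHAG and YWHAE fell by 0.26 and 0.20, while SFN, the 14-3-3 gene of epithelial cells, rose by 2.73 (adjusted p = 1.77e-05) from 0.415 ± 0.191 CPM in Con to 3.24 ± 0.61 CPM in GTA+5-Aza. Among the 7 sirtuins, NAD-dependent deacetylases that are not among the members followed here, SIRT6 (0.37) and SIRT2 (0.19) were higher and SIRT1 (-0.29) was lower. The polyamine list, which holds the pathway of the HDAC10 substrate, had 2 genes higher and 3 lower of 12: the synthesis genes ODC1 (-0.43, adjusted p = 1.41e-09), SRM (-0.34) and SMS (-0.17) were lower, OAZ2 (0.25), an inhibitor of ODC1, was higher, and so was the oxidase gene SMOX (0.52), which was named after its values were seen. With CPT, edgeR called 0 of all tested genes in unprimed and 0 in primed cells, listed genes included, where 733 and 464 genes had an unadjusted P under 0.05 and DESeq2 called 4 and 1.

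In the single comparison of priming without CPT, where 9.95% of all tested genes were higher and 7.53% lower, NuRD had 2 genes higher and 0 lower, SIN3 had 0 and 2, CoREST and MiDAC had 2 and 2, the class IIa partners 3 and 3, the sirtuins 0 and 1, and the polyamine list 2 and 2. With CPT, where 9.57% of all tested genes were higher and 7.39% lower, NuRD had 2 higher and 0 lower, CoREST and MiDAC had 1 and 1, the class IIa partners 3 and 4, the sirtuins 0 and 1, and the polyamine list 0 and 3. Of the 14 SIN3 genes 0 were called with CPT by edgeR or DESeq2, while edgeR gave 1 of them an unadjusted P under 0.05.

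**Figure D5:**
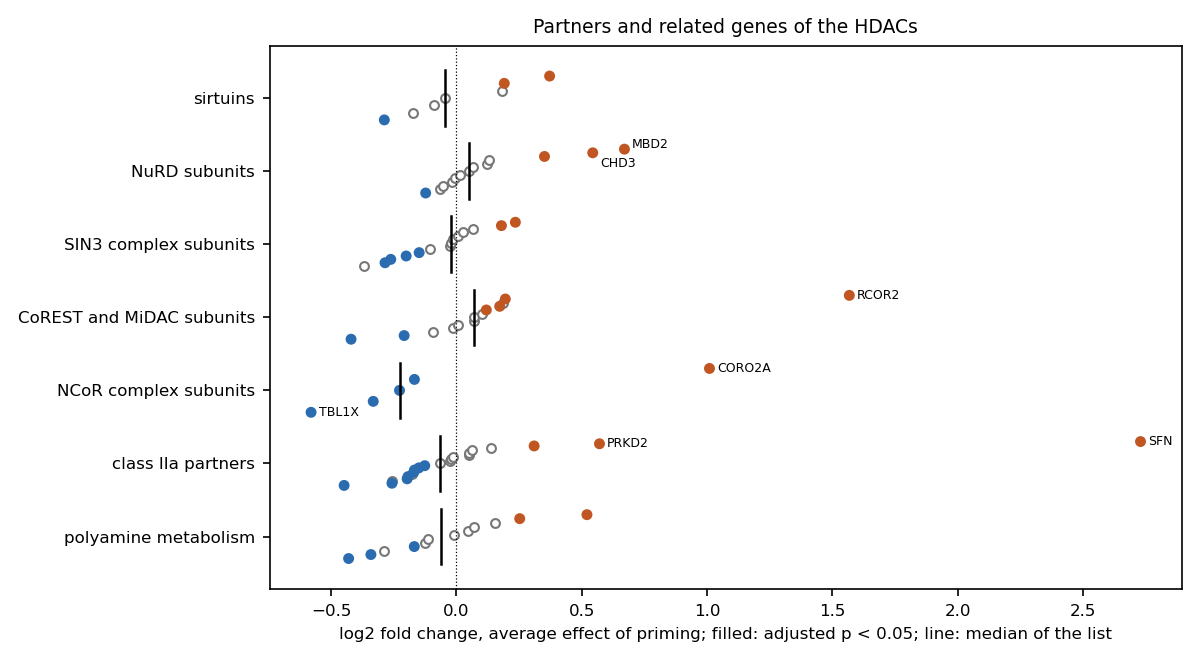
Average log2 fold change with priming (horizontal axis) of the tested genes of 7 lists (vertical axis, with points spread for legibility); filled points have an adjusted p under 0.05, red above 0 and blue below, and the black line is the median of the list. The line of the NCoR complex is at -0.23 with CORO2A alone on the right, and RCOR2 and SFN are the points farthest right, at 1.57 and 2.73.

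As a description of pattern, the 3 genes whose log2 CPM over the 12 libraries was most like that of HDAC4 by Pearson's r were CUL4A (0.989), DDX46 (0.986) and TRAPPC9 (0.986). For HDAC5, the called member with the largest rise, they were PIANP (0.967), ARSA (0.962) and PHKA2 (0.954). The libraries share 4 group means, and with these removed r was 0.815, 0.717 and 0.592 for the genes like HDAC4 and 0.842, 0.851 and 0.69 for those like HDAC5. The size of their changes was not that of the HDAC gene: CUL4A changed by -0.26 on average with priming and TRAPPC9 by -0.76, beside -1.19 for HDAC4, and PIANP by 2.11, beside 0.86 for HDAC5.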

How the data were processed

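RNA was extracted with TRIzol and sequenced in 12 libraries of MiaPaca2 cells, 3 in each of 4 groups taken from the labels. Per the labels, the tools of the authors were Trim Galore for trimming, HISAT2 version 2.2.1 for alignment (build GRCh38) and HTSeq for counting reads per gene. The deposited values are raw counts, and the annotation release and strand setting are not given in the sources used here. Of 63677 identifiers, 52181 were in GENCODE release 44, from which symbols, positions and exon lengths were taken. Exon lengths are therefore approximate for the counted gene models.

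Counts were filtered with filterByExpr, scaled with TMM and fitted over all 12 libraries with group as the factor in edgeR 4.0.16 (R 4.3.3). The quasi-likelihood test with Benjamini-Hochberg adjustment covered 17123 genes. The SE is the absolute log2 fold change divided by the square root of F. Intervals cover 95%. The average effect of priming or CPT is the mean of its log2 fold changes in both states. Scripts were tested on simulated data. Alternatives were RLE factors, library size alone, no filter, DESeq2 1.42.0, a replicate block, removal of each library's GC trend (GC content known for 96.2% of tested genes), only the groups compared, and each library left out.

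The members and gene lists were chosen with earlier results of these data known. All members are named, and for each list the 4 or fewer called genes with the smallest P for the average effect of priming, other genes where a sentence turns on them. Replicates differed by more than sampling noise in all 12 pairs within groups (chi-square per degree of freedom 3.88 to 16.6). One listed gene is not reported here, and the counts of its list leave it out.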

Additional observations from a re-analysis of the deposited data

How the results depend on the processing

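HDAC4, HDAC5 and HDAC7 kept their direction and an adjusted p under 0.05 in GTA+5-Aza against Con, in CPT+GTA+5-Aza against CPT and in their average under all alternatives run. For GTA+5-Aza against Con the log2 fold change ranged from -1.29 to -1.06 for HDAC4, 0.57 to 0.89 for HDAC5 and 0.59 to 0.91 for HDAC7, and the highest adjusted p was that of HDAC5, 0.0392. Of 1190 values of a member in a comparison under an alternative, 1163 kept their side of the threshold and direction or, where not called, moved by at most 1 SE. A call reversed in 0, was lost in 2 and gained in 4, all given with the results, and 21 values without a call moved by more than 1 SE; the cause was not tested. Same-numbered libraries did not deviate together (3 of 18 pairs had a correlation over 0.1, from -0.377 to 0.42, and 5 of 12 libraries correlated best with their own number), so the numbers are not read as pairing. With the replicate block 3 members were called in each comparison of priming and 0 with CPT, and 2888 genes in GTA+5-Aza against Con, where the fit without it called 2993. Leaving out a library lowered that count most for GTA+5-Aza replicate 3 (1907) and Con replicate 3 (1983). For CPT against Con, 0 genes became 10 with no filter, 4 with DESeq2, 4 with the GC trend removed, 1 with the block and 1 without Con replicate 2. For CPT+GTA+5-Aza against GTA+5-Aza, 0 became 4 with no filter, 1 with DESeq2, 2 with only these groups and 1 without GTA+5-Aza replicate 1. For the average effect of CPT, 1 became 19 with no filter, 15 with DESeq2, 16 with the GC trend removed and 0 to 8 with a library left out, and the interaction went from 0 to 11 with no filter. Low counts limit HDAC10, with 9 to 52 per library.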
